A study of Mus musculus with 15 samples.

Results

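Nucleosome occupancy at promoters was compared between non-stimulated and TNF-α-stimulated control fibroblasts, with 2 single H3K4me1 ChIP-MNase libraries in each state. These are the 4 of 15 samples whose labels name control 3T3 fibroblasts without BAF knockdown, and the comparison was made over the 13559 of 25881 annotated promoters with a coverage score above 100. In ChIP-MNase, chromatin carrying a histone mark (here H3K4me1, present at active and at many inactive promoters) is pulled down by its mark and cut with micrococcal nuclease, so that the fragments left are mostly those wrapped in nucleosomes. The study examined how nucleosomes are arranged at promoters that respond to a stimulus, in dendritic cells and in fibroblasts, and what the BAF remodelling complex contributes.

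All 4 libraries come from 3T3 cells, an immortalised mouse embryonic fibroblast line. The non-stimulated cells received no treatment and the stimulated cells received TNF-α at 5 ng/ml for 1 h. The control cells are the counterpart of the stable BAF-knockdown line, in which an shRNA is expressed from a retroviral vector with GFP; whether the control cells carry an empty vector is not given in the sources used here. By the authors' expression column for non-stimulated fibroblasts, all 11 annotated promoters of listed fibroblast markers passed the cut-off for active promoters (0.02 of the mean). Of 17 promoters of dendritic cell or myeloid markers, 1 passed this cut-off and 2 were inactive, with no detectable expression. The remaining 14 fell in none of the active, inducible and inactive classes, so they were not shown to be silent. The expression column describes fibroblasts as measured elsewhere and not these 4 cultures.

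At a typical expressed gene, a stretch of DNA just upstream of the TSS is depleted of nucleosomes (the NDR), and well-placed nucleosomes flank it, the +1 nucleosome downstream and the −1 nucleosome upstream, followed by a regular array into the gene. Silent genes usually lack this arrangement. TNF-α binds TNF receptors and activates kinases that mark the IκB inhibitors for degradation. NF-κB is thereby released into the nucleus, where it binds κB motifs and activates genes for chemokines, cytokines, adhesion molecules and its own inhibitors. Some of these promoters have an NDR before the stimulus and some do not, so a stimulus could in principle act with or without a change in nucleosome arrangement.

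A form of the κB motif is printed for 6 promoters of TNF-responsive genes whose values are given further on. The sequences were read from the mouse genome of build mm9 upstream of each TSS, on the strand of the gene, and the capitals mark the match to GGANTTTCC on either strand.
Icam1 (chr9:20820191-20820290, plus strand): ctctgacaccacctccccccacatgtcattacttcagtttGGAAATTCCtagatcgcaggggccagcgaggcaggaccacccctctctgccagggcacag
Cxcl10 (chr5:92778014-92778113, minus strand): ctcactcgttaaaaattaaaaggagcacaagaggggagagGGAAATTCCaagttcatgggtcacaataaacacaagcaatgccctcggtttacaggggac
Cxcl2 (chr5:91332789-91332888, plus strand): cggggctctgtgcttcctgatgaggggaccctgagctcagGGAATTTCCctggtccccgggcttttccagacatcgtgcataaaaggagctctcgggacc
Il6 (chr5:30339571-30339670, plus strand): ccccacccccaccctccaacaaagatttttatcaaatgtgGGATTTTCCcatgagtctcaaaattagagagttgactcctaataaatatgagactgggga
Ier3 (chr17:35958479-35958578, plus strand): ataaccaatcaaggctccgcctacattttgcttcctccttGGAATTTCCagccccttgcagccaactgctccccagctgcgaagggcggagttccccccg
Tnfaip3 (chr10:18735217-18735316, minus strand): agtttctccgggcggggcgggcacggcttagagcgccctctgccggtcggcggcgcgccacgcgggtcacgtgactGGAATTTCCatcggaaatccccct

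The match starts 174 bp upstream of the TSS at Icam1, 158 bp at Cxcl10, 140 bp at Ier3, 97 bp at Cxcl2, 91 bp at Il6 and 24 bp at Tnfaip3. At Icam1 and Cxcl10 it thus starts upstream of the stretch from −150 to 0 bp in which occupancy of the NDR was measured. In the window from −250 to 50 bp, this form was found at 17 of 112 inducible promoters (15.2%) and at 185 of all 13559 high-coverage promoters (1.36%). The letters TATAAA on the gene strand were found at 15 inducible promoters (13.4%) and at 860 promoters in all (6.34%). A match is a description of the letters and does not show binding.

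The values are occupancies in 200 bins of 10 bp from −1000 to 1000 bp around each TSS. The authors divided fragment counts by the local total over 1 kb, so that the mean occupancy over high-coverage promoters was 0.796 to 0.804 in the 4 libraries, and overall gains or losses of a whole promoter are not visible. An occupancy is an average over all cells of a culture, so that a nucleosome lost in some cells cannot be told apart from a partial loss in all. Read depth is not part of the values. As a stand-in, 74.9% and 69.7% of bins held any signal in the non-stimulated replicates 1 and 2, and 73.4% and 63.6% in the stimulated ones. Between 183 and 198 high-coverage promoters were empty in a library.

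The first question was whether 1 h of TNF-α changed the mean arrangement of nucleosomes at classes of promoters. In all 4 libraries, active promoters had a deep NDR, a strong +1 nucleosome and a regular array, inducible promoters had an NDR and a +1 nucleosome on a noisier profile, and inactive promoters were nearly flat. The states differed by less than the replicates in the mean profile of active promoters. The second replicate had the deeper NDR in both states.

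**Figure D1:**
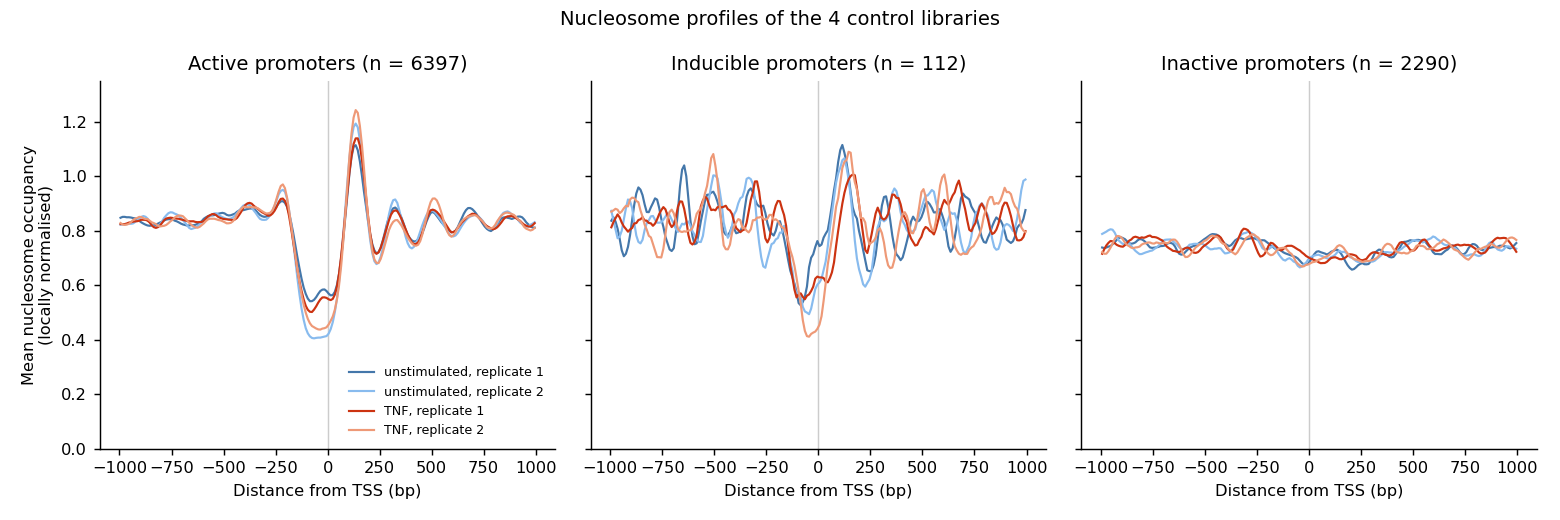
Mean nucleosome occupancy, normalised to the local 1 kb, against distance from the TSS in bp, for active, inducible and inactive promoters, with 1 line for each of the 4 control libraries. At active promoters the 2 lines of replicate 2 (pale) lie lowest in the NDR and highest at the +1 nucleosome whichever the state, while at inactive promoters all lines are nearly flat.

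NDR depth was expressed as a ratio, with mean occupancy over the NDR (−150 to 0 bp) set against that of the upstream flank (−1000 to −500 bp), so that a value of 1 means no NDR. At the 6397 active promoters, those of genes expressed before the stimulus, this ratio was 0.699 and 0.535 in the non-stimulated replicates and 0.655 and 0.587 in the stimulated ones. The means were 0.617 ± 0.116 (SD, n = 2) and 0.621 ± 0.0480 (SD, n = 2), so the ranges overlapped. The stimulated minus non-stimulated difference was −0.0443 in replicate 1 and 0.0514 in replicate 2. Replicate 2 differed from replicate 1 by −0.164 without and −0.0679 with the stimulus.

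The mean absolute difference between the state means over the 200 bins was 0.0104, against 0.0296 between the non-stimulated and 0.0211 between the stimulated replicates. The first compares means of 2 libraries and the others compare single libraries, which vary more than means. Both stimulated libraries lay above both non-stimulated ones in 26 of the 200 bins and below in 28, with 0 of the 15 NDR bins in either set. Occupancy over the +1 nucleosome was 0.975 and 1.03 before and 1.00 and 1.05 after TNF-α, higher by 0.0268 and 0.0215 within the numbered replicates but with overlapping groups. Occupancy over the +2 nucleosome did not overlap, at 0.837 and 0.836 without and 0.831 and 0.7999 with TNF-α. In the mean profile, the peak of the +1 nucleosome stood at 135, 135, 145 and 135 bp in the 4 libraries. The median position of the first peak downstream of the TSS was also taken over single promoters, without the least prominent 20% of peaks. At active promoters it was 105 and 125 bp without and 115 and 135 bp with TNF-α, which overlap. At inducible promoters it was 90 and 105 bp without and 105 and 125 bp with TNF-α, and at inactive ones 95 and 95 bp against 95 and 105 bp. The nucleosome period, taken over all high-coverage promoters and not only the active ones, was 181 and 177 bp before and 181 and 176 bp after the stimulus.

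The 112 inducible promoters are those of genes whose mRNA rises with TNF-α in fibroblasts. That rise comes from public array data used by the authors and was not measured in these cultures. The NDR ratio of the inducible promoters was 0.741 and 0.694 without and 0.711 and 0.630 with TNF-α. Both numbered replicates were lower after the stimulus, by −0.0302 and −0.0643, yet the groups overlapped, and the means differed by −0.0473 with SDs of 0.0331 and 0.0573. Occupancy over the −1 nucleosome of these promoters did not overlap, at 0.830 and 0.744 without and 0.853 and 0.839 with TNF-α. In the pooled pair, which has no replicates, both differences ran the other way, with an NDR ratio of 0.612 without and 0.632 with TNF-α and a −1 occupancy of 1.64 and 1.54 on the higher scale of those samples. At the 2290 inactive promoters the NDR ratio was 0.939 and 0.915 without and 0.973 and 0.942 with TNF-α, higher by 0.0308 on average with no overlap, and 0.948 and 0.962 in the pooled pair. These are promoters of genes with no detectable expression, and both states had a ratio near 1.

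Inducible promoters were then split at the median patterning of the pooled non-stimulated fibroblast sample, a separate sample in which the authors combined 2 replicates, into 56 patterned and 56 non-patterned promoters. Patterning is the summed product of a promoter's profile and the mean profile of active promoters, after each mean was subtracted, so that 0 means no likeness. Because the split came from another sample, the values of the control libraries were not used to make it. Non-patterned inducible promoters lacked a clear NDR before the stimulus in these libraries too, with ratios of 0.899 and 0.893, close to those of inactive promoters. After TNF-α the ratios were 0.801 and 0.820, both below the non-stimulated libraries, a difference of −0.0856 with SDs of 0.00428 and 0.0137. The median patterning of the same promoters was 0.528 and 0.984 without and 1.69 and 1.52 with TNF-α, again without overlap. The mean and the median over single promoters did not have the same sign. The median difference was 0.0111 in NDR occupancy, where the mean was −0.0551. Both stimulated libraries lay above both others at 10 promoters and below at 10 (17.9% each), against 14.6% and 14.5% of all high-coverage promoters. In patterning the median difference was −0.0139 and the mean 0.400. There 10 lay above and 7 below (17.9% and 12.5%), against 15.7% and 16.5% of all. Occupancy over the +1 nucleosome of this class was 0.938 and 0.873 without and 0.857 and 0.827 with TNF-α, lower without overlap. In the pooled pair this occupancy ran the other way, at 1.48 without and 1.59 with TNF-α on the higher scale of those samples.

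With 2 libraries against 2, the exact two-sided permutation test over the libraries cannot go below p = 0.333, which is the p of each of these non-overlapping comparisons, so none can pass a threshold of 0.05. Of 15 overlapping classes examined, 2 had NDR ratios that did not overlap between the states and 1 had a median patterning that did not. Occupancy did not overlap in 2 classes over the +1, in 3 over the −1 and in 5 over the +2 nucleosome. The patterned inducible promoters had ratios of 0.585 and 0.498 without and 0.620 and 0.432 with TNF-α, the 2 stimulated libraries lying on either side of the others. In the pooled pair the non-patterned ratio was 0.892 without and 0.841 with the stimulus, and the non-stimulated one of these samples made the split. In BAF-knockdown fibroblasts, the other 4 single libraries, the same promoters had ratios of 0.945 and 0.820 without and 0.806 and 0.916 with TNF-α, which overlap.

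**Figure D2:**
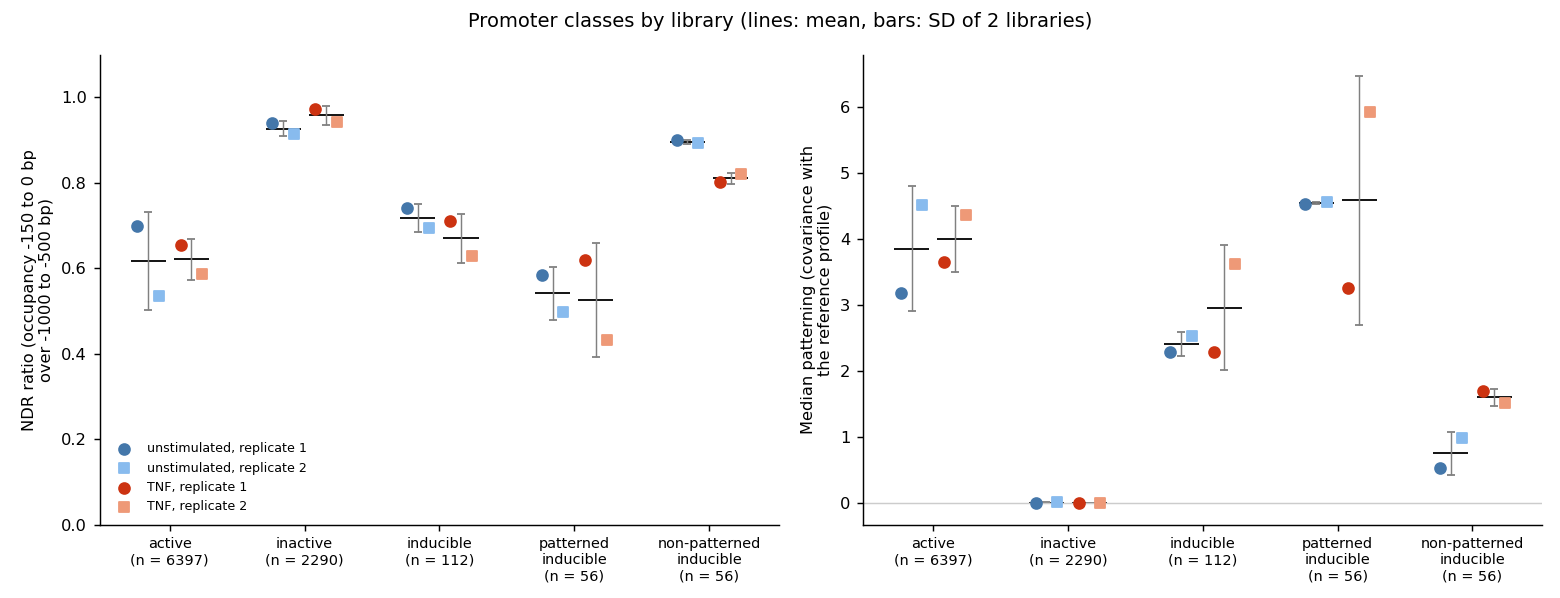
NDR ratio (left) and median patterning (right) of 5 promoter classes, with 1 point for each control library, lines at the mean and bars for the SD of 2 libraries. In the NDR ratio, the states do not overlap at inactive and at non-patterned inducible promoters, in opposite directions, and at active promoters replicate 1 lies above replicate 2 in both states.

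The next question was which single promoters changed. No promoter passed the test in any of 5 readouts, which were patterning, mean occupancy of the NDR from −150 to 0 bp, and mean occupancy of 140 bp windows over the +1, −1 and +2 nucleosomes (centred at 135, −225 and 325 bp). By limma with Benjamini-Hochberg adjustment, 0 of 13559 promoters were called for patterning (0.0%), with a smallest adjusted p of 0.900. For NDR occupancy the smallest adjusted p was 0.467, and for the +1, −1 and +2 nucleosomes it was 0.750, 0.735 and 0.737, so that each of these also had 0.0% called. At an unadjusted p under 0.05, patterning was higher with TNF-α at 328 promoters (2.42%) and lower at 308 (2.27%). NDR occupancy was higher at 465 (3.43%) and lower at 512 (3.78%). For the +1, −1 and +2 nucleosomes, 902, 915 and 901 promoters had an unadjusted p under 0.05.

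For patterning and NDR occupancy, the spread of the differences between states was no wider than that between replicates. Over all promoters, the difference in patterning between the state means had an SD of 5.60, and the difference between replicate 2 and replicate 1 averaged over the states had an SD of 5.68. For NDR occupancy the SDs were 0.470 and 0.480. The median standard error of a single promoter's difference was 3.95 for patterning, where the median level without the stimulus was 2.24, and 0.303 for NDR occupancy, where it was 0.573. For patterning, a change as large as the median level was therefore within 1 standard error. A difference that misses the threshold here does not show that a promoter stayed the same.

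**Figure D3:**
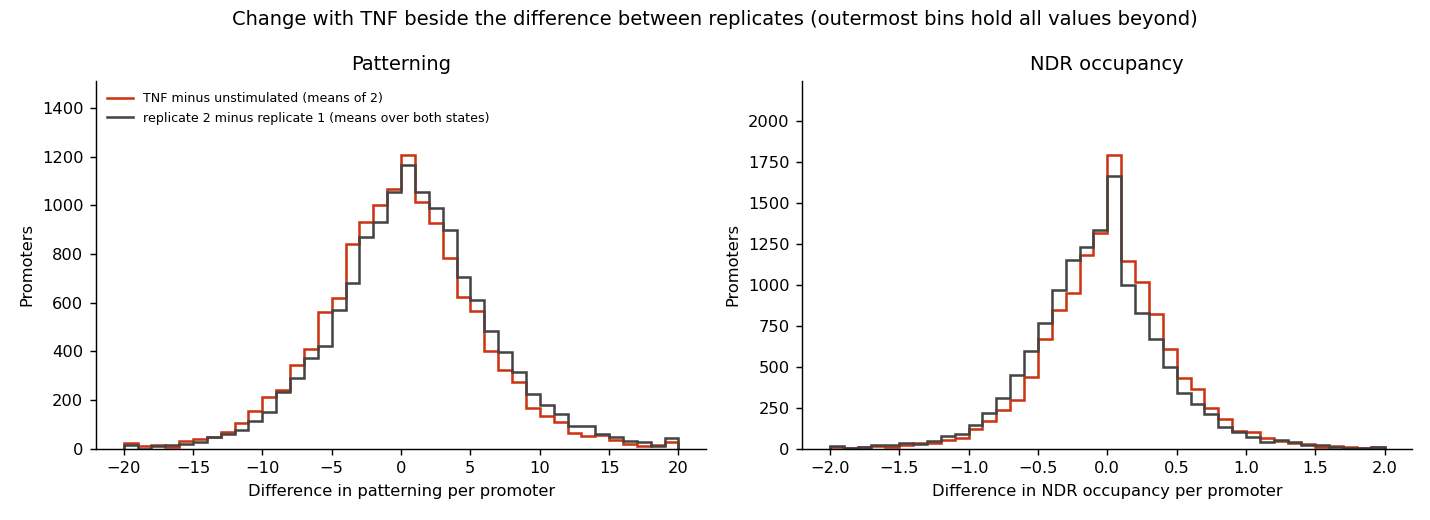
Numbers of the 13559 promoters by their difference in patterning (left) and in NDR occupancy (right), for TNF-α minus non-stimulated and, beside it, for replicate 2 minus replicate 1. The outlines are of nearly the same width, with SDs of 5.60 and 5.68 for patterning and of 0.470 and 0.480 for NDR occupancy.

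Single libraries also ranked the promoters only loosely alike. Spearman's rho of patterning over the 13559 promoters was 0.274 between the non-stimulated replicates and 0.272 between the stimulated ones, and 0.267 to 0.298 between libraries of different states. For NDR occupancy it was 0.275 and 0.306 between replicates and 0.267 to 0.332 between states. Both libraries of a state were thus no more alike than libraries of different states. These points share the promoter set, and neighbouring TSSs share fragments.

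Both stimulated libraries lay above both non-stimulated ones at 2122 promoters for patterning (15.7%) and below at 2243 (16.5%). For NDR occupancy the figures were 1980 (14.6%) and 1964 (14.5%). Among the 112 inducible promoters, patterning lay above at 20 (17.9%) and below at 15 (13.4%), and NDR occupancy above at 19 and below at 19. These shares are near the background. At an unadjusted p under 0.05, 7 of the 112 were higher in patterning and 0 lower, against 2.42% and 2.27% of all promoters. In NDR occupancy 5 were higher and 7 lower, against 3.43% and 3.78%. The 7 with higher patterning were Map3k8, Rnd1, Arl5b, Trim47, Slc25a25, Stx11 and the downstream start of Tnfaip3. They were named after their values were seen, and each had an adjusted p of 0.900 in patterning by limma.

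TNF-responsive genes were followed at 21 promoters of 16 genes with sufficient coverage, out of 24 genes listed. All but Icam1 and Traf1 belong to the inducible class formed from the public array data. The NF-κB inhibitor genes were represented by Nfkbie, and the NF-κB subunit genes by Nfkb2. None of the 21 passed the test, with smallest adjusted p of 0.900 for patterning and 0.624 for NDR occupancy by limma. In patterning, 5 had both stimulated libraries above both others and 3 below, against 15.7% and 16.5% of all promoters. In NDR occupancy 3 lay above and 5 below, against 14.6% and 14.5% of all promoters.

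The promoter of Icam1, an adhesion molecule that binds leukocyte integrins, had the lowest p among them. Its NDR occupancy at the TSS on chromosome 9, position 20820405, was 2.39 and 2.21 without and 0.873 and 0.728 with TNF-α, a difference of −1.50 with a standard error of 0.134 (adjusted p = 0.624 by limma). Its patterning was −12.6 and −12.2 without and −2.53 and −3.07 with TNF-α, below 0 in all 4 libraries. Both readouts separated the states, and they use some of the same bins. In the pooled pair, the patterning of Icam1 was 3.48 without and 2.84 with TNF-α, and its NDR occupancy was 1.94 and 1.55. The coverage score of this promoter is 101, just inside the limit of 100, and 139 to 167 of its 200 bins held signal.

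Tnfaip3 encodes A20, a ubiquitin-editing enzyme that restrains NF-κB signalling, and has 2 annotated starts with sufficient coverage. At the start at position 18731769 of chromosome 10, NDR occupancy was 1.66 and 1.08 without and 0.413 and 0.811 with TNF-α, and patterning was −5.03 and −4.10 without and 4.62 and 2.38 with TNF-α. The patterning difference was 8.06 with a standard error of 2.64 (adjusted p = 0.900 by limma). At the start at 18735216, which has the κB match printed above, NDR occupancy was 1.63 and 0 without and 0.930 and 1.30 with TNF-α, so the states overlapped.

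Nfkb2 encodes the p100 precursor of an NF-κB subunit and has 3 starts within little more than 1 kb, which share fragments. NDR occupancy at 46380186 on chromosome 19 was 0.0190 and 0.0333 without and 0.644 and 0.389 with TNF-α. At 46380421 it was 0.933 and 0.785 without and 0.405 and 0 with TNF-α, and at 46379228 it was 0.175 and 0.466 without and 0 in both libraries with TNF-α. Occupancy was thus higher with TNF-α at the middle start and lower at the outer ones. The differences were 0.490, −0.656 and −0.321, with adjusted p of 0.687, 0.693 and 0.814 by limma.

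The chemokine genes differed in their values. At Cxcl10, which attracts activated T cells, NDR occupancy was 0.103 and 0 without and 0.479 and 0.476 with TNF-α. At Ccl7, a monocyte chemoattractant, it was 0.106 and 0.429 without and 0.923 and 0.805 with TNF-α. Both were higher in the stimulated libraries, by 0.426 and 0.596, with adjusted p of 0.641 and 0.684 by limma. Ccl2, the main monocyte chemoattractant, had values of 0.496 and 0.744 without and 0.409 and 1.26 with TNF-α, and the neutrophil chemoattractant Cxcl2 had 0.190 and 1.37 without and 0.996 and 0.685 with TNF-α. In both the replicates of a state stood further apart than the state means.

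The remaining promoters mostly overlapped between the states. Ier3, an early-response gene linked to cell survival, had an NDR occupancy of 0 in every library and patterning of 7.10 and 13.8 without and 8.32 and 13.6 with TNF-α, an open NDR in both states. Nfkbie, which encodes IκBε, had an NDR occupancy of 0.246 and 0.0133 without and 0 in both libraries with TNF-α. Il6, a cytokine gene, had 1.04 and 0.884 without and 1.6 and 0 with TNF-α, the widest gap between replicates of the stimulated state among the 21. Junb, an AP-1 subunit gene, had 0.935 and 0 without and 0.0370 and 1.19 with TNF-α, so that replicates of either state disagreed.

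At Irf1, a transcription factor gene of interferon responses, the start at 53583976 on chromosome 11 had patterning of 1.33 and −5.84 without and 5.96 and 11.4 with TNF-α, and the start at 53583517 had 10.6 and 7.92 without and 3.22 and 7.20 with TNF-α. The 2 starts share fragments and differed in opposite directions. Traf1, an adaptor of TNF receptor signalling, had patterning of 3.20 and −2.28 without and 5.77 and 6.75 with TNF-α. The cytokine genes Lif and Csf1 and the mRNA decay factor gene Zfp36 are shown with the others in the plot of TNF-responsive genes.

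**Figure D4:**
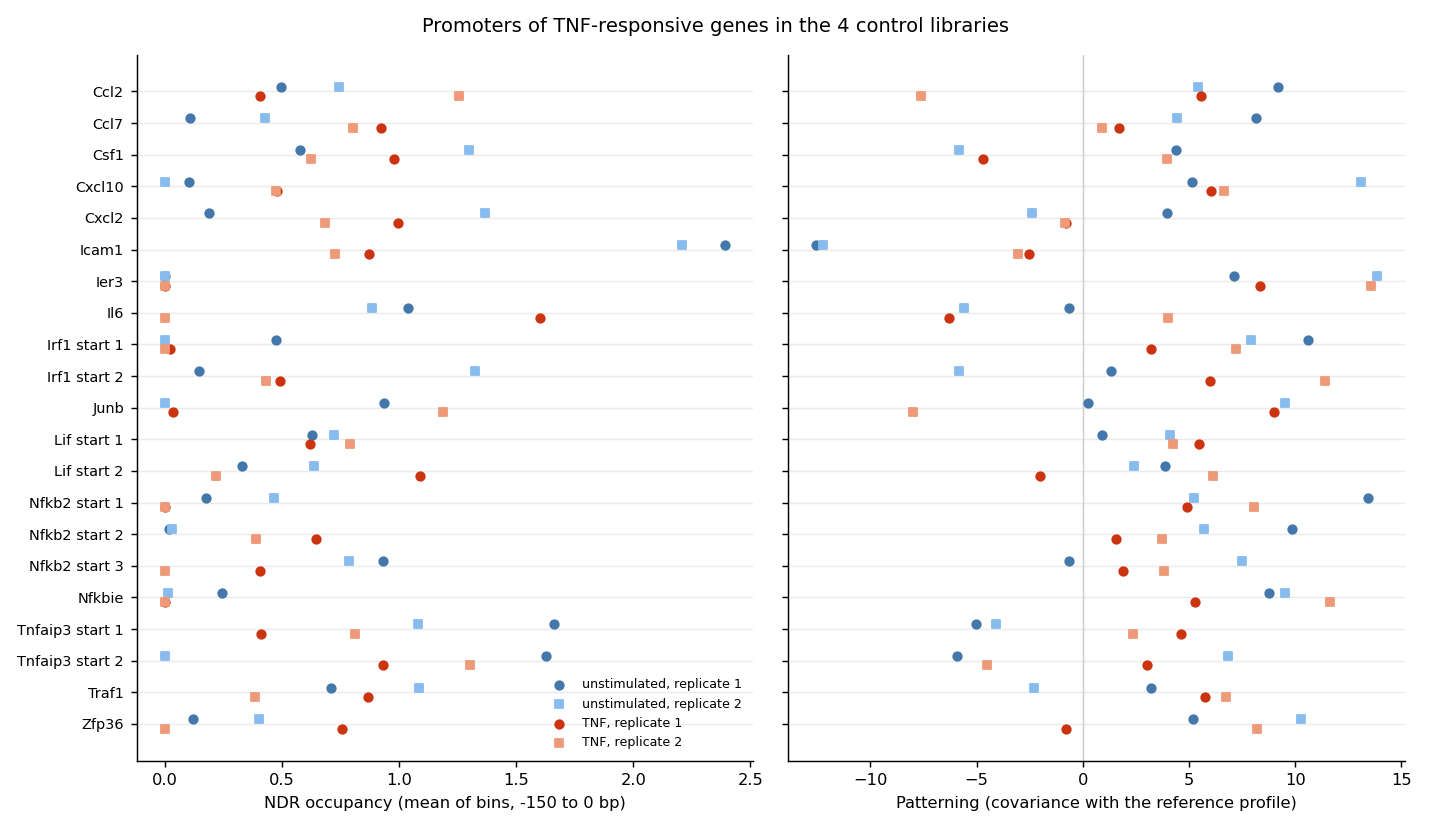
NDR occupancy (left) and patterning (right) of 21 promoters of TNF-responsive genes, with 1 point for each control library and genes with several starts shown once per start in genomic order. Icam1 has the widest gap between the states in NDR occupancy, from 2.39 and 2.21 to 0.873 and 0.728, while most other promoters have stimulated and non-stimulated points interleaved.

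Gene groups of the pathway were counted against all promoters, where the median difference was 0 for both readouts and the shares without overlap were 15.7% above and 16.5% below in patterning and 14.6% and 14.5% in NDR occupancy. Of 9 promoters of NF-κB subunits and inhibitors, 0 had patterning above and 3 below without overlap (0% and 33.3%), and NDR occupancy was above at 3 and below at 4 (33.3% and 44.4%). The 3 with lower patterning were Rela, Bcl3 and one start of Nfkb2. Of 27 promoters of TNF receptor signalling genes, patterning was above at 7 (25.9%) and below at 4 (14.8%), and NDR occupancy above at 4 and below at 8 (14.8% and 29.6%). In this group Map3k8, a kinase acting in the ERK branch, had patterning of −0.500 and −2.18 without and 10.1 and 13.8 with TNF-α. Rbck1, a subunit of the linear ubiquitin ligase, had NDR occupancy of 0.784 and 1.11 without and 1.76 and 2.22 with TNF-α at one start. At another start 214 bp away, which shares fragments with it, the values were 0.536 and 0.523 against 0.0155 and 0.171.

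Of 29 promoters of chemokines and cytokines, patterning was above at 5 and below at 7 (17.2% and 24.1%, against 15.7% and 16.5% of all), and NDR occupancy above at 5 and below at 2 (17.2% and 6.90%), with a median difference of 0.00780. Of 14 promoters of immediate early and feedback genes, patterning was above at 4 and below at 1 (28.6% and 7.14%), while its median difference was −0.64, and NDR occupancy was above at 2 and below at 2. Myc, a growth regulator in this list, had NDR occupancy of 1.33 and 1.36 without and 0.584 and 0 with TNF-α (adjusted p = 0.641 by limma). Jund was also below. Klf6 and Nr4a1 were above. Klf6 had 0.766 and 0.327 without and 0.968 and 0.833 with TNF-α, and Nr4a1 0.447 and 0.153 against 0.478 and 1.18. Of 18 promoters of other NF-κB targets, patterning was above at 3 and below at 3 (16.7% each). NDR occupancy was above at 2 and below at 2 (11.1% each, against 14.6% and 14.5% of all). Those below were Icam1 and Lcn2. Lcn2, an iron-sequestering acute-phase gene, had NDR occupancy of 1.38 and 1.28 without and 0.488 and 0.133 with TNF-α (adjusted p = 0.624 by limma). Tap1 and Rcan1 were above. Tap1 had 0.424 and 0.0235 without and 0.866 and 0.703 with TNF-α, and Rcan1 0.49 and 1.01 against 1.96 and 1.11.

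Groups outside the pathway were counted in the same way. Of 70 promoters of cytosolic ribosomal protein genes, patterning was above at 11 and below at 17 (15.7% and 24.3%, against 15.7% and 16.5% of all), with a median difference of −1.19. Of 11 promoters of fibroblast matrix genes, NDR occupancy was above at 5 and below at 2 (45.5% and 18.2%, against 14.6% and 14.5% of all), and patterning above at 2 and below at 3. Those above included Col1a1, a chain of type I collagen, at 0.0700 and 0 without and 0.367 and 0.366 with TNF-α, and Thbs1, the matrix glycoprotein thrombospondin, at 0 in both libraries without and 0.378 and 0.477 with TNF-α. Mmp14, a membrane-bound matrix protease, was at 0.785 and 0.553 without and 0 in both libraries with TNF-α. Their adjusted p were 0.687, 0.641 and 0.624 by limma, so that none passed. Of the fibroblast markers 7 promoters had enough coverage and of the dendritic cell or myeloid markers 16, and patterning was above at 1 and 0 of them and below at 0 and 3.

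Of the 16 promoters with the lowest p in patterning, all but Mto1 had values below 0 in both libraries of one state and above 0 in both of the other. Those higher with TNF-α were Morf4l2 at 133275694, Otud4, Grsf1, Yars2, Dnajb3, Rftn2, Mir483 and Smc2. Morf4l2, a chromatin-associated gene on chromosome X, had patterning of −14.3 and −19.4 without and 11.4 and 9.85 with TNF-α (adjusted p = 0.900 by limma). Those lower with TNF-α were Asb1, H2bc22, Mief2, Morf4l2 at 133275891, Mto1, Ung, Lnpk and Dpagt1. The second start of Morf4l2 lies 197 bp from the first and had patterning of 12.8 and 28.1 without and −16.5 and −18.7 with TNF-α, so that values higher at one start are lower at the other. In the pooled pair, the patterning difference had the same sign at Dnajb3, Mir483, Ung, Lnpk, Dpagt1 and Morf4l2 at 133275891. It had the opposite sign at all the others of the 16.

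In NDR occupancy, Morf4l2 at 133275891 was at 0 in both non-stimulated and at 3.33 in both stimulated libraries, with an adjusted p of 0.467 by limma. In the 4 libraries 85, 95, 49 and 50 of its bins held signal, against a median of 145 per promoter. The same value of 3.33 recurred at the other start of Morf4l2 in non-stimulated replicate 2. It also recurred at the sparsely covered Gpr31b in BAF-knockdown cells. Whether equal values in replicates come from sparse, locally scaled signal was not tested. H2bc22, a histone H2B gene, was at 0 in both non-stimulated libraries and at 3.16 in both stimulated ones, and Tacc1 and Olfr1418 followed in the same direction. Ints9, an Integrator subunit gene, was at 1.65 and 1.63 without and 0.0427 and 0 with TNF-α, and Tmem106c, Dnajb3 and Otud4 were also lower. Bins with signal numbered 104, 90, 110 and 87 at H2bc22 and 153, 150, 125 and 100 at Ints9. None of these 8 promoters belongs to the inducible class. In the pooled pair, NDR occupancy at H2bc22 was 3.96 without and 0 with TNF-α, the opposite direction. The pooled difference also ran the other way at Olfr1418, Tmem106c and Otud4, and the same way at Tacc1 and Dnajb3. At Morf4l2 at 133275891 and at Ints9, both pooled values were 0.

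The last question was whether the promoters that differed most between the pooled fibroblast samples differed in the same way here. They did not: the 100 promoters with the greatest increase of patterning in the pooled pair, 38.6 in the median there, had a median difference of −1.06 in the control libraries. Both stimulated control libraries lay above both others at 10 of them and below at 17, against 15.7% and 16.5% of all promoters. The 100 with the greatest decrease, −37.4 in the median, had a median difference of 1.90 in the control libraries, above at 18 and below at 8. Over all 13559 promoters, Pearson's r between the pooled and the control differences was −0.00838 for patterning and −0.00611 for NDR occupancy. The pooled values carry no replicate error of their own, and the extremes of 2 single profiles were chosen for their size.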

How the data were processed

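H3K4me1 ChIP-MNase libraries of control 3T3 fibroblasts were compared, 2 non-stimulated and 2 after TNF-α, as named in the labels. The values are a signal: per the study's methods, the authors aligned reads to mm9 with bowtie (their processing notes name Bowtie2 and bedtools), removed excess duplicates, extended single-end reads to the mean fragment size, counted fragments in 10 bp bins, scaled them to the local total (1 kb) and smoothed them over 50 bp. An empty cell was read as 0. The deposited coverage score of each promoter counts fragments in the pooled non-stimulated data and not in these libraries. The log2 change of expression with TNF-α, a deposited column, comes from a public array data set. It served only to form the inducible class, above 0.35 and without the significance criterion of the study. The deposited expression column, also from a public data set, formed the active (above 0.02 of the mean) and inactive (0) classes. The annotation's columns for dendritic cells were not used. RefSeq accessions were matched to symbols for 24924 of 25881 promoters (96.3%) through a RefSeq table; Traf3 did not match. Of the promoters, 85.6% had a transcript start of the mm9 annotation no more than 50 bp from the deposited TSS, against 0.386% after a shift of 5 kb.

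Readouts were patterning (against the mean profile of active promoters in the pooled non-stimulated sample), NDR occupancy from −150 to 0 bp, and +1, −1 and +2 occupancy. Each was tested over 13559 promoters with limma 3.58.1 in R 4.3.3 (lmFit and eBayes, two-sided, Benjamini-Hochberg at 0.05), with Python 3.11.15, numpy 2.4.6 and pandas 2.3.3 for the rest. The fit was checked on simulated data. Class values were compared by an exact permutation test of the 4 libraries. The study describes the 2 libraries of each state as biological replicates, and the labels say nothing further of their cultures. Named genes were the 8 promoters with the lowest p in each direction for patterning, 4 in each direction for NDR occupancy, and 24 TNF-responsive genes where coverage sufficed. Map3k8, Rbck1, Rela, Bcl3, Myc, Klf6, Nr4a1, Jund, Lcn2, Tap1, Rcan1, Col1a1, Thbs1 and Mmp14 lie outside this rule and were named with their values known. The members and gene lists were chosen with earlier results of these data known. Alternatives were a replicate block, all 8 single fibroblast libraries, other scalings, coverage limits, windows and templates, and each library left out. A limit on the share of bins with signal (50%, 12572 promoters) was added after seeing the data.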

Additional observations from a re-analysis of the deposited data

Results flagged for a closer look

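The effect of TNF-α on NDR occupancy differed between control and BAF-knockdown fibroblasts at 1 promoter, that of Gpr31b, a G protein-coupled receptor gene (TSS at position 13245146 of chromosome 17, mm9). In the fit of all 8 single libraries, the effect in BAF-knockdown cells minus that in control cells was −3.33 with a standard error of 0.136 (limma, adjusted p = 0.0216). NDR occupancy was 0 in all 4 control libraries and in both stimulated BAF-knockdown libraries, and 3.33 in both non-stimulated BAF-knockdown libraries. The coverage score of this promoter is 935, but only 10 to 20 of its 200 bins held signal in any of the 8 libraries. Among the 12572 promoters with signal in at least 50% of bins, the same test called 0 promoters for NDR occupancy, with a smallest adjusted p of 0.907 and 671 promoters at an unadjusted p under 0.05. For patterning, the test of the difference called 0 of 13559 promoters, with a smallest adjusted p of 0.860 and 764 at an unadjusted p under 0.05. The groups hold 2 libraries each, so no search for a library standing apart within a group was possible.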

How the results depend on the processing

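Counts of called promoters stayed at 0 in each of the 71 alternatives tried over the 5 readouts, including every fit that left out 1 library (0 to 0), in which the lone library of a state is assumed to vary like the others. With the replicate number as a block, 0 promoters were called for patterning, with 476 at an unadjusted p under 0.05 and a smallest adjusted p of 0.903. Over single promoters the deviations of same-numbered libraries were nearly uncorrelated (0.00691 for patterning and 0.00621 for NDR occupancy). In the mean profile of active promoters, however, same-numbered libraries of the 2 states lay closer (distances of 0.147 and 0.199 in square-root occupancy) than replicates of one state (0.452 and 0.280). Tags in the file names also recur with the number and may be days, which the labels do not say. Of the 80 alternatives of class differences, 69 moved a value by less than the SD between replicates. With a coverage score above 200, the NDR ratio difference was 0.0967 at patterned and −0.122 at non-patterned inducible promoters, and the median patterning difference was −0.427 at inducible promoters, against 0.553 with a score above 100, and 0 at inactive ones. With the square root of occupancy, the non-patterned inducible promoters gave −0.0618 in NDR ratio and 0.416 in median patterning, and inactive promoters 0 in median patterning. With a template from the non-stimulated control libraries, median patterning differed by 0.511 at non-patterned inducible and −0.0253 at inactive promoters. Leaving out a library gave NDR ratio differences of −0.0783 to 0.0854 at active, −0.0878 to −0.00678 at inducible, −0.110 to 0.0788 at patterned inducible, −0.0953 to −0.0760 at non-patterned inducible and 0.0149 to 0.0467 at inactive promoters. The matching ranges in median patterning were −0.517 to 0.824, −0.114 to 1.22, −1.29 to 1.37, 0.620 to 1.08 and −0.0103 to 0. The causes were not tested. None of the single promoters named passed the threshold under an alternative. For those named by the stated rule, 493 of 556 alternative values moved by less than the SD between replicates. Depth is not part of the values and limits every single-promoter statement.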
